A study of Mus musculus with 17 samples.

Results

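The genes described here were 9 components and regulators of the complement system, C3, C4b, Cfb, Cfd, Cfi, Serping1, Cd46, Cd55 and Cd59a, taken by symbol from a table of 22253 genes. All 9 were present in the table, and each was read as CPM (counts scaled to the depth of each library) in 17 libraries of retinal pigment epithelium (RPE), the pigmented cell layer behind the photoreceptors. The mice were 2 months old and carried a Serpine3GFP/+ knock-in, in which a GFP reporter was placed at the start codon of 1 Serpine3 copy, in exon 2, and which all groups share, controls included. The groups were peripheral RPE cells with GFP (GFP+, 6 libraries), peripheral RPE cells without GFP (ctrl periphery, 5 libraries) and central RPE cells without GFP (ctrl center, 6 libraries). The libraries came from 7 mouse numbers, of which number 1 stands for 2 animals pooled, and 5 of them supplied all 3 groups. Each library was a pool of 10 to 15 hand-picked cells per the labels, while the study's methods give a slightly lower range, and GFP marked cells under the microscope rather than by a transcript count. GFP+ cells were compared with central and with peripheral GFP-negative cells to ask how the Serpine3-expressing subpopulation differs from other RPE, and ctrl periphery was set against ctrl center for the regional difference without GFP.

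Complement is a cascade of plasma and locally made proteins in which cleavage of C3 tags surfaces and leads on to the membrane attack complex. The classical pathway reaches C3 through C4 and C2, and the alternative pathway through factor B, which factor D cleaves. Host cells hold the cascade back with soluble regulators such as factor I and C1 inhibitor and with the surface proteins CD46, CD55 and CD59, and the RPE is among the tissues outside the liver that make complement proteins themselves.

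Of the 9 genes, only the surface regulators Cd59a and Cd46 were read in most libraries. Cd59a encodes a lipid-anchored inhibitor of the membrane attack complex, and Cd46 encodes a cofactor for the cleavage of C3b and C4b by factor I. Cd59a was above 3 counts in 16 of 17 libraries and Cd46 in 14 of 17. C4b was above 3 counts in 3 libraries, Cfi in 4, Cfb in 2 and C3 in 1, whereas Cfd, Cd55 and Serping1 were above it in none. Of all genes in the table, 43.6% were above 3 counts in at least 9 libraries and 31.5% in no library. Among all member counts, Cd59a held 72.4%, Cd46 16.8%, C4b 6.29% and Cfi 4.42%. A single library had between 1 and 4 members above 3 counts. The pools hold few cells, and since counts were summed over a pool, fewer cells that make a transcript and less of it per cell cannot be told apart.

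**Figure D1:**
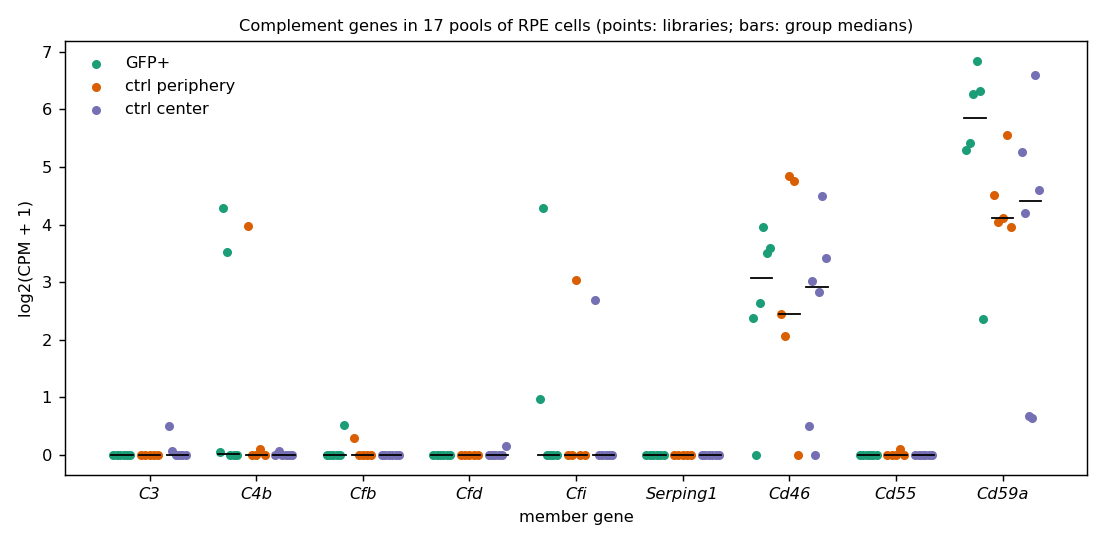
Levels of the 9 members as log2(CPM + 1), with 1 point for each of the 17 libraries, coloured by group, and a black bar at each group median. Cd59a and Cd46 are spread over a wide range in every group, C4b and Cfi are read in 3 and 4 libraries, and the other 5 genes lie at or near 0.

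The bases before the annotated starts are shown for the members read most often, Cd59a and Cd46, beside those of C3 and Cd55, which were at or near 0. Each window is the 250 bases before the RefSeq start on GRCm38.p6, written 5′ to 3′ on the strand of the gene. Such windows were found for 5 of the 9 members. The windows lie at chr2:104095551-104095800 (plus strand) for Cd59a, chr1:195092249-195092498 (minus) for Cd46, chr17:57228137-57228386 (minus) for C3 and chr1:130462745-130462994 (minus) for Cd55. Capitals mark matches to the letters searched on both strands. The letters were those of the TATA box (spelled TATAAA), the CCAAT box, the GC box (spelled GGGCGG), a STAT site (spelled TTCNNNGAA) and the E-box in its forms CATGTG and also CACGTG.
Cd59a: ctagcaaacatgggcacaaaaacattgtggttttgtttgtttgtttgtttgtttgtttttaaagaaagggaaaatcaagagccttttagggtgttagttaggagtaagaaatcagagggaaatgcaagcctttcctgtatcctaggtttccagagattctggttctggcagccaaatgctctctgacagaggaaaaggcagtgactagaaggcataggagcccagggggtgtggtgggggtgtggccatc
Cd46: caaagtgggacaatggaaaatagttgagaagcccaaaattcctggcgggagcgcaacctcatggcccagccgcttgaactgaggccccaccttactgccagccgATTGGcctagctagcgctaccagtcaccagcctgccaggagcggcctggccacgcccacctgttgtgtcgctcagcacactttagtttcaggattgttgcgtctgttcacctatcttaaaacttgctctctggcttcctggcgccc
C3: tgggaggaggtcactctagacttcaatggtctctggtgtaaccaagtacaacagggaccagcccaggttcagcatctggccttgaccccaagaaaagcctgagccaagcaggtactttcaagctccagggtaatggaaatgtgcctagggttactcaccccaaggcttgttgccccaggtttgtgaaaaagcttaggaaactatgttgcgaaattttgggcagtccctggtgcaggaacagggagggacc
Cd55: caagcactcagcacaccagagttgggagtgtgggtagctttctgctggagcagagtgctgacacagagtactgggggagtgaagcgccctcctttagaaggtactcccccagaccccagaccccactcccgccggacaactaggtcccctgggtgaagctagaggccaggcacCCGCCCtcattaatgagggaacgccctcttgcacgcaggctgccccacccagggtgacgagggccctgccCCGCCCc
The Cd59a window held no CpG and none of the searched letters, and the C3 window held 1 CpG and none of the letters. The Cd46 window held 10 CpG and the reverse of the CCAAT box, shown as ATTGG, starting 146 bases before the start. The Cd55 window held 8 CpG and the reverse of the GC box, shown as CCGCCC, starting 77 and 7 bases before the start. Over all 32851 windows the median was 6 CpG, and the share holding a match was 12.4% for TATAAA, 33.8% for CCAAT, 32.7% for GGGCGG, 7.02% for TTCNNNGAA, 12.3% for CATGTG and 6.02% for CACGTG. The window of Cfd, a member also at or near 0, is not shown. It held 2 CpG and the reverse of CATGTG, starting 237 bases before the start. Among the 5 windows found, the read and the unread members thus each included a window poor in CpG and one with more CpG than the median.

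The libraries held 9896118 to 22467079 counts, and 3 counts, the limit that a count of 0 allows, corresponded to 0.116 to 0.554 CPM. These reads carry no molecular identifiers, so such limits cover counting error only. Serpine3 was read at 6.20 to 22.4 CPM in the GFP+ libraries, at 0 to 0.279 CPM in ctrl periphery and at 0 in all ctrl center libraries. Of 12 RPE markers, 11 were above 3 counts in all 17 libraries, and the exception was Best1, at or under 3 counts in each. The share of counts from 13 mitochondrial genes was 7.95 ± 5.70% (SD, n = 6) in GFP+, 19.7 ± 6.98% (n = 5) in ctrl periphery and 29.1 ± 12.2% (n = 6) in ctrl center. It was lower in GFP+ than in ctrl center (exact permutation test, 2-sided p = 0.00433, adjusted over 3 comparisons 0.0130) and than in ctrl periphery (p = 0.0130, adjusted 0.0195). The test shuffled libraries without regard to mouse, although 5 mouse numbers supplied all 3 groups. Mouse 5 had the highest share in each group, 17.2% in GFP+, 30.4% in ctrl periphery and 47.3% in ctrl center. Ctrl center mice 4, 5 and 7 had the fewest genes with at least 10 counts, 6681, 5392 and 6430. Of 10 macrophage and microglia markers, 7 were at or under 3 counts in all libraries, Aif1, Lyz2, Adgre1, Tyrobp and Mrc1 among them. The summed level of that list was 38.1 to 111 CPM in GFP+, 105 to 146 in ctrl periphery and 68.4 to 116 in ctrl center, mostly from Csf1r, which was above 3 counts in all 17 libraries at 35.6 to 146 CPM. The adipocyte markers Adipoq, Fabp4, Lep and Cidec and the fibroblast markers Col1a2, Pdgfra and Postn were likewise at or under 3 counts throughout, whereas Plin1 and Col1a1 were above it in 12 libraries each, at up to 4.74 and 1.29 CPM, and Pdgfrb in 9, at up to 9.48 CPM. The 7 adipocyte markers summed to at most 4.79 CPM and the 8 fibroblast markers to at most 10.6 CPM. The endothelial list summed to at most 27.0 CPM and the photoreceptor list to at most 81.2 CPM. Ciliary and iris markers summed to 154 to 539 CPM in GFP+, 109 to 243 in ctrl periphery and 15.5 to 327 in ctrl center. Of these, Acta2 reached 538 CPM, while Wfdc1, Opn5 and Des were at or under 3 counts in all libraries. Markers of melanocytes other than RPE summed to at most 241 CPM, and those of Mueller glia, Apoe among them, to at most 8915 CPM. Whether these reads came from other cells was not tested.

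Cd59a (ENSMUSG00000032679.12, chr2:104095801-104115354 on GRCm38) was the member with the highest level. Per kilobase of exon, its mean over the 17 libraries was 20.9 ± 18.9 CPM (SD), at percentile 92.4 of the genes in the table, against 1.18 ± 1.17 CPM per kilobase for Cd46, at percentile 62.5. In the GFP+ libraries Cd59a had 38.3 CPM in mouse 1, 41.9 in mouse 2, 76.5 in mouse 3, 114 in mouse 4, 78.9 in mouse 5 and 4.15 in mouse 7. Mouse 7 alone lay under the other GFP+ pools, which were all above the mean of either control group. In ctrl periphery it had 21.9 CPM in mouse 1, 15.5 in mouse 2, 16.4 in mouse 4, 46.1 in mouse 5 and 14.6 in mouse 7, a narrow band with 1 higher library. In ctrl center it had 37.3 CPM in mouse 1, 17.4 in mouse 2, 0.599 in mouse 4, 0.554 in mouse 5, 95.8 in mouse 6 and 23.4 in mouse 7. The central pools therefore ran from 3 counts in mouse 5 to 1278 counts in mouse 6 and covered nearly the whole GFP+ range.

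The group means of Cd59a were 58.9 ± 38.5 CPM in GFP+ (SD, n = 6), 29.2 ± 35.5 in ctrl center (n = 6) and 22.9 ± 13.3 in ctrl periphery (n = 5). The groups overlapped in every comparison for Cd59a and for Cd46, while for GFP+ against ctrl center 1.13% of all genes tested had groups that did not overlap, for GFP+ against ctrl periphery 1.29% and for ctrl periphery against ctrl center 0.755%. Neighbours in this order did not differ beyond their spread. Within a mouse, Cd59a was higher in GFP+ than in ctrl center in 4 of 5 mice and than in ctrl periphery in 4 of 5, with mouse 7 the exception both times. The ratio of GFP+ to ctrl periphery was 1.75 in mouse 1, 2.71 in mouse 2, 6.94 in mouse 4, 1.71 in mouse 5 and 0.284 in mouse 7. Against ctrl center the ratio was 1.03 in mouse 1, 2.41 in mouse 2 and 0.177 in mouse 7, and it was 190 and 142 in mice 4 and 5, where the central pools had 6 and 3 counts. These central pools were 2 of those with the fewest genes and had 32.4% and 47.3% mitochondrial counts; the part of that in the Cd59a values was not tested.

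**Figure D2:**
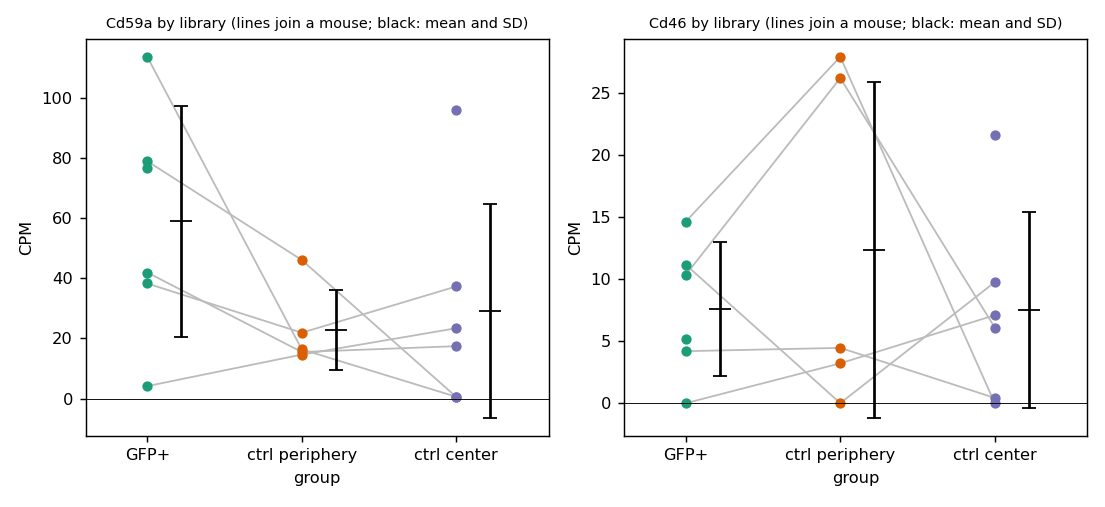
Levels of Cd59a (left) and Cd46 (right) in CPM on linear axes, with 1 point per library, grey lines joining the libraries of a mouse and the group mean with its SD in black. Cd59a is above ctrl periphery in 4 of 5 GFP+ pools of the same mouse, and Cd46 in 1 of 5.

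Across all genes, edgeR's quasi-likelihood test called a gene at a Benjamini-Hochberg adjusted p under 0.01 with a log2 fold change over 1 in size. In the comparison of GFP+ with ctrl center it called 4 of 9286 genes tested, 0.0431%, and 0 of the 2 members that passed the filter on low counts, Cd59a and Cd46. At an unadjusted p under 0.05 it held 0 of these members and 539 of all genes (5.8%), and DESeq2 called 0 members and 202 genes (1.62%). With mouse as a replicate block, which pairs libraries of the same animal, edgeR called 56 genes and 0 members. For Cd59a the log2 fold change was 0.99 with an SE of 0.97 (95% interval -1.04 to 3.03; edgeR adjusted p = 1.00, 0.566 to 1.00 over the alternatives). Leaving out the pool of ctrl center mouse 6 gave 1.79. Among the lower-numbered mice 1 to 3 the log2 ratio of mean CPM, with 1 added, was 0.91, and among mice 4 to 7 it was 1.10.

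With ctrl periphery as the control of GFP+, edgeR called 4 of 10102 genes, 0.0396%, and again 0 members. Of the 2 members tested, 1 had an unadjusted p under 0.05, beside 564 of all genes (5.58%), and DESeq2 called 0 members and 67 genes (0.571%). That gene was Cd59a, with a log2 fold change of 1.37 and an SE of 0.62 (95% interval 0.050 to 2.69; edgeR adjusted p = 0.874, 0.303 to 1.00 over the alternatives). The replicate block, under which 0 genes were called, gave 0.89 with an adjusted p of 0.921 in edgeR. Within mice 1 to 3 the log2 ratio of mean CPM, with 1 added, was 1.43, and within mice 4 to 7 it was 1.32.

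For ctrl periphery against ctrl center edgeR called 0 of 9535 genes (0%), with 257 at an unadjusted p under 0.05 (2.7%) and 29 genes (0.258%) called by DESeq2. None of these calls was a member. The log2 fold change of Cd59a was -0.37 with an SE of 1.10 (95% interval -2.69 to 1.94; edgeR adjusted p = 1.00 and at least 0.980 in the alternatives). It turned to 0.46 without ctrl center mouse 6 and to 1.32 with the replicate block. The ratio of periphery to center within mice 1 to 3 was -0.53 on the log2 scale and within mice 4 to 7 -0.22.

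Cd46 (ENSMUSG00000016493.13, chr1:195036826-195092249 on GRCm38) was read at a lower level and without a common order of the groups. In GFP+ it had 4.19 CPM in mouse 1, 0 in mouse 2, 5.20 in mouse 3, 14.6 in mouse 4, 10.3 in mouse 5 and 11.2 in mouse 7. In ctrl periphery it had 4.46 CPM in mouse 1, 3.21 in mouse 2, 27.9 in mouse 4, 26.2 in mouse 5 and 0 in mouse 7. In ctrl center it had 0.421 CPM in mouse 1, 7.09 in mouse 2, 0 in mouse 4, 6.10 in mouse 5, 21.6 in mouse 6 and 9.75 in mouse 7. Each group thus held 1 library at 0 and at least 1 library above 10 CPM. The group means were 12.4 ± 13.5 CPM in ctrl periphery (SD, n = 5), 7.59 ± 5.38 in GFP+ (n = 6) and 7.49 ± 7.90 in ctrl center (n = 6), with SDs as large as most of the means. Within a mouse, GFP+ was above ctrl center in 4 of 5 mice but above ctrl periphery in 1 of 5.

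The log2 fold change of Cd46 was -0.028 with an SE of 1.47 for GFP+ against ctrl center (95% interval -3.12 to 3.06), -0.70 with an SE of 1.39 for GFP+ against ctrl periphery (-3.64 to 2.24) and 0.68 with an SE of 1.62 for ctrl periphery against ctrl center (-2.75 to 4.11). The edgeR adjusted p rounded to 1.00 in all 3, and the adjusted p was at least 0.880 in every alternative, in edgeR and DESeq2. These intervals span more than a 4-fold difference either way, so the depth and the spread of the pools cannot show that the groups are alike. Log2 ratios of mean CPM, with 1 added, within mice 1 to 3 and mice 4 to 7 were -0.20 and 0.33 for GFP+ against ctrl center and -0.23 and -0.55 for GFP+ against ctrl periphery. For ctrl periphery against ctrl center they were 0.024 and 0.88. The Cd46 locus overlaps the annotated genes A330023F24Rik, Mir29b-2 and Mir29c, and whether counting used strand is not given in the sources used here, so reads from overlapping transcripts cannot be told apart.

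Spearman's rho between the levels of Cd59a and Cd46 was 0.35 across the 17 libraries, which share groups, animals and depth. Among 9711 candidate genes above 3 counts in at least 9 libraries, the levels most like Cd59a were those of Lyrm7 (rho 0.85), Cfap20 (0.83) and Flywch1 (0.80). The levels most like Cd46 were those of Nacc2 (0.85), Pcx (0.81) and Baz2b (0.79). These are the highest of many values and are given as a description.

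Cd55, the third surface regulator, which speeds the decay of the C3 convertases, was read as 1 count in ctrl periphery mouse 5 and 0 in the other 16 libraries. Its paralog Cd55b was at 0 in all 17. Cd59b, the copy of Cd59a, was above 3 counts in 12 of 17 libraries at 2.77 ± 2.79 CPM (SD, n = 17), against 37.8 ± 34.2 CPM for Cd59a, and reads that fit both copies may have been divided between them. Cr1l, which encodes Crry, the rodent surface protein with the work of CD46 and CD55, was above 3 counts in 15 of 17 libraries. Cr1l had a median of 36.0 CPM in GFP+ (2.26 to 63.7), 34.6 in ctrl periphery (19.4 to 60.7) and 4.68 in ctrl center (0 to 31.2). Per kilobase of exon its mean was 2.63 ± 1.96 CPM, above that of Cd46 and under that of Cd59a. Cr1l was lower in ctrl center than in the peripheral pools of the same mouse in 5 of 5 mice for either peripheral group, while edgeR gave a log2 fold change of 1.43 (SE 1.30) for GFP+ and 1.61 (SE 1.36) for ctrl periphery against ctrl center. Neither passed (edgeR adjusted p = 1.00 for both; 0.518 to 1.00 and 0.692 to 1.00 over the alternatives). With the replicate block the Cr1l values were 4.26 and 4.96, beside medians over all genes of 0.57 and 0.49 in the same fits. In those fits 67.4% and 66.0% of all genes tested were above 0. The share of all genes with the same order in 5 of 5 mice was not counted. Without ctrl center mouse 1 the Cr1l values were 2.10 and 2.24, and without ctrl center mouse 4 they were 1.16 and 1.37. The central libraries of mice 4 and 5, low in genes read, were at 0 for Cr1l as they were at 6 and 3 counts for Cd59a. The central library of mouse 7, also low in genes read, had 7 counts of Cr1l and 211 of Cd59a.

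**Figure D3:**
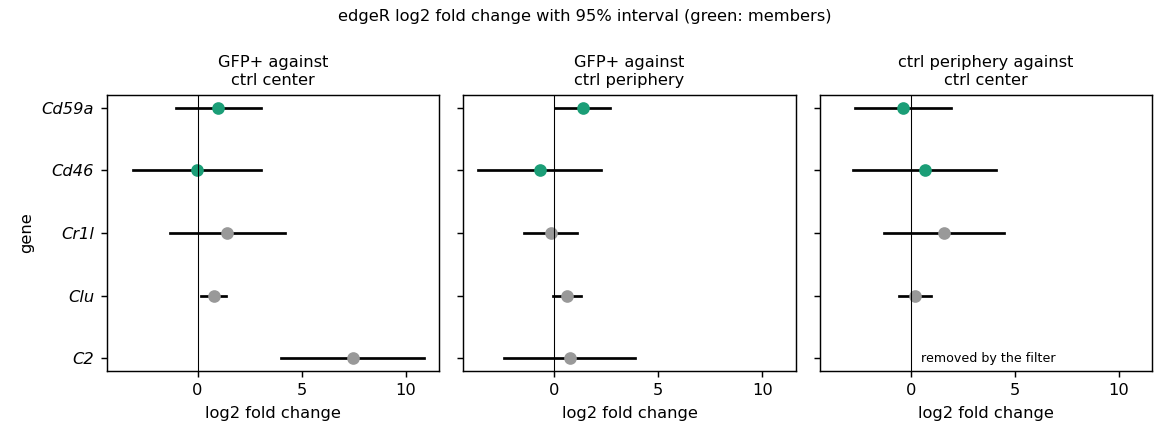
The edgeR log2 fold change (point) with its 95% interval (line) for Cd59a and Cd46 in green and 3 other complement genes in grey, in the 3 comparisons. The interval of Cd59a lies above 0 for GFP+ against ctrl periphery, from 0.050 to 2.69, with an adjusted p of 0.874 in edgeR, and the intervals of Cd46 include 0 in all 3 comparisons.

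Among the soluble regulators, Serping1, which encodes the C1 inhibitor, had 0 counts in all 17 libraries, which allows 0.116 to 0.554 CPM depending on the library. Cfi, the gene of the protease that inactivates C3b and C4b, was read in 4 libraries. Cfi had 0.970 CPM in GFP+ mouse 1, 18.5 in GFP+ mouse 2, 7.27 in ctrl periphery mouse 4 and 5.47 in ctrl center mouse 1, and it was at 0 in the other 13. The reads thus came in 2 of the 6 GFP+ pools and in 1 pool of each control group, and no mouse but number 1 gave them in more than 1 pool. Mean Cfi was 3.25 ± 7.49 CPM in GFP+ and 0.912 ± 2.23 in ctrl center (exact permutation test, 2-sided, unadjusted p = 0.727), and 1.45 ± 3.25 in ctrl periphery (p = 0.848 against GFP+ by the exact permutation test).

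Of the activating components, C4b, the source of the classical pathway's C4, had 18.6 CPM in GFP+ mouse 2, 10.5 in GFP+ mouse 3 and 14.8 in ctrl periphery mouse 1, and at most 1 count in the other 14 libraries. The 3 libraries belonged to mice 1, 2 and 3, and in mice 1 and 2 the other pools of the same mouse had at most 1 count. C4b did not pass edgeR's filter. Mean C4b was 4.86 ± 7.93 CPM in GFP+ and 2.98 ± 6.62 in ctrl periphery (exact permutation test, 2-sided, unadjusted p = 0.784), and 1 count was read over all ctrl center libraries. For GFP+ against ctrl center, DESeq2 gave C4b an adjusted p of 0.0252, which misses 0.01, and edgeR with no filter one of 0.184. C4a, its near-identical copy, was not among the genes counted under that symbol, and counts of C4b may include reads of C4a. GFP+ mouse 2 was the library with the highest level of both C4b and Cfi. In that library 2 of the 10 macrophage and microglia markers were above 3 counts, Csf1r at 35.6 CPM and Cd68 at 2.47, and the list summed to 38.1 CPM, the lowest of the 17 libraries. The leukocyte integrin gene Itgb2, a pathway gene named here after its values were seen, had 197 counts (9.35 CPM) in it and was otherwise read only in ctrl periphery mouse 2, at 97 counts. The part of other cell types in the C4b and Cfi values was not tested.

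C3, the central component, had 5 counts in ctrl center mouse 1 and 1 in ctrl center mouse 2. Cfb, which encodes factor B, had 9 counts in GFP+ mouse 7 and 4 in ctrl periphery mouse 1, and Cfd, which encodes the factor B protease also known as adipsin, had 1 count in ctrl center mouse 7. In every other library these 3 genes were at 0. The Cfb locus overlaps the annotated gene Gm20547, so reads from overlapping transcripts cannot be told apart. Per kilobase of exon, the means over the 17 libraries were 0.0136 CPM for Cfb, 0.00707 for Cfd and 0.00544 for C3. No difference between groups was detectable at this depth for C3, Cfb, Cfd, Cd55 or Serping1, none of which passed the filter.

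**Figure D4:**
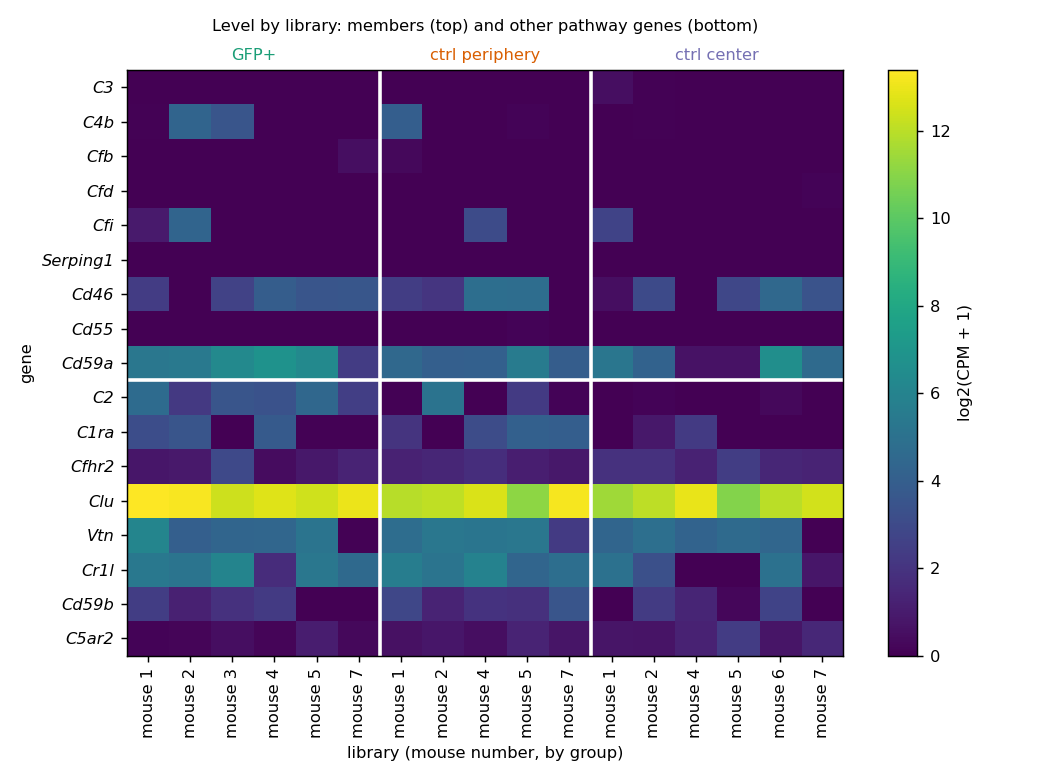
Levels as log2(CPM + 1) in each library, ordered by group and mouse, for the 9 members (above the white line) and 8 other genes of the pathway (below it). Of the members only Cd59a and Cd46 form near-continuous rows, while Clu below the line is high in all 17 libraries.

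The rest of the pathway was given by a list of 46 genes in the table, of which 8 were above 3 counts in at least 9 libraries, 17 in fewer and 21 in none. The fluid phase regulators were read most: 4 of 8 were above 3 counts in at least 9 libraries, Clu, Vtn and Cfhr2 among them. Clu, which encodes clusterin, had 1679 ± 767 CPM per kilobase (SD, n = 17), at percentile 99.9, beside 20.9 for Cd59a. The terminal components, which the CD59 proteins hold back, were above 3 counts in at least 9 libraries for 0 of 7 genes, the initiators for 1 of 16 (C1ra) and the receptors for 1 of 9 (C5ar2). Vtn, which encodes vitronectin, was read in 15 libraries at 24.2 ± 16.5 CPM.

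Of the 46 pathway genes, 8 passed the filter for GFP+ against ctrl center, 5 with a log2 fold change above 0 and 3 below, with a median of 0.30 beside 0.00067 over all genes tested. For GFP+ against ctrl periphery 9 passed, 3 above and 6 below, with a median of -0.12 beside 0.013, and for ctrl periphery against ctrl center 9 passed, 5 above and 4 below, with a median of 0.20 beside 0.0091. DESeq2 called C2 alone, for GFP+ against ctrl center, beside 1.62% of all genes tested. EdgeR called 0 of them in each comparison. At an unadjusted p under 0.05 it held 3 of 8, 0 of 9 and 0 of 9, beside 5.8%, 5.58% and 2.7% of all genes tested. The 3 were C2, Clu and C5ar2, the last a receptor for C5a. The log2 fold change of Clu was 0.77 with an SE of 0.29 (edgeR adjusted p = 0.534, 0.144 to 0.999 over the alternatives), and that of C5ar2 was -2.28 with an SE of 0.91 (edgeR adjusted p = 0.623), at 2 to 23 counts per library.

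C2, the gene of the protease that joins C4b in the classical C3 convertase, was the pathway gene that DESeq2 called. It had 77 to 637 counts in the 6 GFP+ libraries (3.65 to 24.7 CPM, median 9.96) and at most 3 counts in the 6 ctrl center libraries. The groups did not overlap, as was true, with GFP+ higher, of 0.862% of the genes tested. In ctrl periphery C2 had 635 counts in mouse 2, 49 in mouse 5 and at most 1 in mice 1, 4 and 7. The macrophage and microglia marker Ptprc was above 3 counts in 2 libraries only. They were these same ctrl periphery pools, with 29 counts in mouse 2 and 5 in mouse 5. In the GFP+ libraries, which all held C2, Ptprc was at 0. The part of other cell types in the C2 values was not tested. The log2 fold change for GFP+ against ctrl center was 7.44 with an SE of 1.63 (95% interval 4.01 to 10.88), and the edgeR adjusted p of 0.0729 missed the threshold, while that of DESeq2 was 1.01e-10 and passed it (1.01e-10 to 0.276 over the alternatives). Against ctrl periphery the GFP+ value was 0.74 with an SE of 1.48. It was 0.42 without ctrl periphery mouse 4, 3.54 without ctrl periphery mouse 2 and 5.02 with the replicate block. None of these was past the threshold (adjusted p of 0.851 to 1.00 over the alternatives, in edgeR and DESeq2). C4b, its partner in the convertase, was read in 2 of the 6 GFP+ libraries that held C2. Like Cfb, the C2 locus overlaps the annotated gene Gm20547, and reads from overlapping transcripts cannot be told apart.

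Another list held 21 cytokine receptors and transcription factors known to act upstream of complement genes. Of the 21, 15 were above 3 counts in at least 9 libraries and 0 in no library. Over all genes in the table these shares were 43.6% and 31.5%. The other 6 were Il1r1, Il6ra and Socs3, above 3 counts in 1 library each, Il1rap in 2, Irf1 in 6 and Nfkb1 in 8. From the list, 16 genes passed the filter for GFP+ against ctrl center, 10 with a log2 fold change above 0 and 6 below. Their median was 0.54 beside 0.00067 over all genes tested. The median was 0.14 beside 0.013 over 16 genes for GFP+ against ctrl periphery and -0.0094 beside 0.0091 over 15 genes for ctrl periphery against ctrl center. EdgeR called 0 of them in each of the 3 comparisons, with 1 of 16, 2 of 16 and 1 of 15 at an unadjusted p under 0.05 beside 5.8%, 5.58% and 2.7% of all genes tested, and DESeq2 called 0 as well.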

How the data were processed

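The deposited table gives whole-number expected counts (estimated counts) per gene symbol for 17 SMART-Seq libraries of RPE cell pools, which the authors deposited without normalization. The submitters' processing notes name fastp, Salmon and GRCm38.p6, and their versions and settings are not given in the sources used here. All columns were mapped to the labels' groups. Counts were scaled to CPM with TMM factors over all libraries, and a gene was taken as read above 3 counts. Each pair of groups was fitted over all genes in edgeR 4.0.16 (R 4.3.3, filterByExpr, TMM, quasi-likelihood test), with DESeq2 1.42.0 as an alternative. P-values were adjusted over all genes tested. EdgeR was also run on simulated data with the same spread for every gene. Its recovery there is not given here and does not extend to genes read in few libraries. Fold changes compare the first group named with the second. Members removed by the filter were compared by exact permutation of mean CPM, without regard to mouse, where at least 3 libraries were above 3 counts. Exon lengths and positions came from an annotation of GRCm38, matched for 98.2% of symbols, and promoter windows from RefSeq.

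The members and the lists of pathway genes, upstream genes and cell type markers were chosen with earlier results of these data known. By rule the text names every member, the paralogs Cd59b, Cd55b, C4a and Cr1l, pathway genes called by either tool or read in at least 9 libraries (1 of them is not reported here), and the 3 genes most like each member read in at least 9. Replicate numbers stand for mice. Libraries of the same number come from the same animal, or, for mouse 1, from the same 2 pooled animals, and so form pairs, although the correlation of their deviations from the group means was -0.02 to 0.10 over 15 pairs. Batches are not stated, and mice 1 to 3 and 4 to 7 were separated only by their animal numbers. Alternatives covered the program, scaling, filter, threshold, replicate block, covariate, depth and each library left out. The removal of mitochondrial genes before scaling was added after seeing the data.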

Additional observations from a re-analysis of the deposited data

Results flagged for a closer look

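In 8 of 14 groups of libraries with reads of a member, the highest library stood farther from the rest than Dixon's 95% limit for the group's size. That limit assumes normally distributed values, which counts with many libraries at 0 do not follow, so no number expected by chance is given. For C4b it was ctrl periphery mouse 1 at 14.8 CPM, with the next library at 0.0794. Cfi gave 1 such library in each group, GFP+ mouse 2 at 18.5 CPM, ctrl periphery mouse 4 at 7.27 and ctrl center mouse 1 at 5.47. Cfb gave GFP+ mouse 7 at 0.429 CPM and ctrl periphery mouse 1 at 0.223, which are 9 and 4 counts, and C3 gave ctrl center mouse 1 at 0.421 CPM, which is 5 counts. For Cd59a it was ctrl periphery mouse 5 at 46.1 CPM, with the next library at 21.9. In groups with all other libraries at 0, any library that is read meets this limit.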

How the results depend on the processing

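The count of members called was 0 in each comparison under all alternatives, and Cd59a stayed higher in GFP+ than in either control group in each of them, at 0.67 to 2.13 on the log2 scale against ctrl center and 0.89 to 1.83 against ctrl periphery, never past the threshold. Removing mitochondrial genes, chosen after seeing the data, gave 1.01 and 1.37. The number of all genes called for GFP+ against ctrl center was 4, and it was 202 in DESeq2, 56 with the replicate block (1 higher and 55 lower in GFP+), 8 at an adjusted p under 0.05 with any fold, 2 with at least 10 counts in 5 libraries, 1 with animal series (mice 1 to 3 or 4 to 7) as a covariate and 1 to 3 with a library left out. For GFP+ against ctrl periphery it was 4, and 67 in DESeq2, 0 with all 3 groups in the fit, 0 with the replicate block, 1 with animal series and 0 to 5 with a library left out. For ctrl periphery against ctrl center it was 0, 29 in DESeq2 and 0 with any library left out. The replicate block moved the median log2 fold change of all genes to 0.57 for GFP+ against ctrl center, 0.066 for GFP+ against ctrl periphery and 0.49 for ctrl periphery against ctrl center, beside 2.13, 0.89 and 1.32 for Cd59a in the same fits. It changed no call of a member.

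Some values near 0 changed sign, and the cause was not tested. Cd46 in GFP+ against ctrl center went from -0.028 to 0.071 with no filter, 1.12 with the replicate block, 0.062 with animal series as a covariate and -0.35 to 0.58 with a library left out. Cd59a in ctrl periphery against ctrl center went from -0.37 to 1.32 with the block and -0.79 to 0.46 with a library left out. With a library left out, Cr1l in GFP+ against ctrl periphery ran from -0.45 to 0.074 and Clu in ctrl periphery against ctrl center from -0.13 to 0.41. C2 in GFP+ against ctrl center passed the threshold in DESeq2, at 7.47. With all libraries thinned to the smallest total, Cfb was above 3 counts in 0 libraries in place of 2. Small pools and few counts limit what can be said of the 7 members other than Cd59a and Cd46.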
